A study of Mus musculus with 36 samples.

Results

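The genes described here are the 147, of 52505 in the deposited table, whose message fell strongly in wild-type (WT) 3T3-L1 cells during the first days of the adipogenic cocktail and stayed level in the cells labelled Zfp217 knockout (KO). Each gene was placed by its group means of log2(FPKM + 1), where FPKM counts fragments per kilobase of a gene, relative to the depth of the library. A member had a KO day 2 minus KO day 0 difference between -0.5 and 0.5 and a WT day 2 minus WT day 0 difference of -2 or less, which is a fall of FPKM + 1 by at least 4-fold. The members were therefore chosen by these 2 day differences, so the WT fall, the level KO values and the contrast between them are descriptions and were not tested. 3T3-L1 is an established mouse preadipocyte line, fibroblasts that form fat-storing cells under hormones. The 12 RNA-seq libraries are KO cells on day 0, KO cells on day 2, WT cells on day 0 and WT cells on day 2, with 3 libraries in each. The KO cells carry the genotype zfp217-/- in the labels, and the WT cells are unedited cells of the same line. All cells grew in medium with serum, and the cocktail held dexamethasone, isobutyl-methylxanthine, insulin and indometacin. The labels name the same treatment for the day 0 and the day 2 libraries and do not say whether the KO line is a single clone or whether a group's 3 libraries stem from separate cultures, so the spread behind each p-value may be technical.

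A preadipocyte on plastic is a spread fibroblast with thick actin bundles, focal adhesions and a fibronectin matrix, and it takes this scaffold apart as it rounds up into a fat cell. Genes of the contractile scaffold are driven by serum response factor (SRF) with its coactivators of the MRTF family, which respond to the pool of free actin, and by TEAD factors with the tension-sensitive coactivators YAP and TAZ. MRTF and TAZ are known to hold back PPARγ, the master regulator of fat cells. Zfp217 encodes a zinc finger protein known to limit the methylation of adenosine in RNA in mouse stem cells and reported to be needed for fat cell formation in this line.

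The libraries held 18073258 to 23114994 reads, recovered from the steps in the deposited FPKM values. Zfp217 itself averaged 26.0 ± 0.883 FPKM in the libraries labelled KO and 22.0 ± 0.279 FPKM in WT libraries on day 0, and 22.6 ± 0.858 and 15.1 ± 0.369 FPKM on day 2 (SD, n = 3 each). Its message was thus not lower in the libraries labelled KO (exact permutation test, two-sided, p = 0.1 on each day, the smallest that 3 against 3 libraries allow). The table does not show whether the protein was lost. Of the fibroblast genes, Col1a2 averaged 7281 and 1972 FPKM in KO cells on days 0 and 2 and 2684 and 339 FPKM in WT cells. The others were also lower in WT cells on day 2 than in WT cells on day 0 or in KO cells on day 2. In WT cells on day 2 Col1a1, Dlk1, Pdgfra, Thy1 and Pdgfrb averaged 161, 68.7, 37.9, 32.0 and 3.15 FPKM. Their WT day 0 means were 3536, 416, 78.7, 519 and 71.4 FPKM, and their KO day 2 means 2024, 301, 177, 298 and 26.1 FPKM. The summed level of 16 adipocyte markers was 379 to 389 FPKM in KO cells and 9278 to 9490 FPKM in WT cells on day 2. On day 0 it was 199 to 210 FPKM in KO cells and 67.2 to 72.4 FPKM in WT cells. Lpl alone averaged 190 and 273 FPKM in KO cells on days 0 and 2, against 55.9 and 2418 FPKM in WT cells. Fabp4 averaged 1.96 and 10.3 FPKM in KO cells on days 0 and 2, against 1.18 and 2975 FPKM in WT cells. In bulk RNA, fewer cells that express a gene and less message per cell cannot be told apart. All 10 endothelial and all 10 epithelial markers listed averaged under 1 FPKM. Other marker lists were not empty. Their highest sums in any library were 34.9 FPKM for osteoblast and chondrocyte and 27.9 FPKM for macrophage and leukocyte markers. For neural and glial markers the highest sum was 7.63 FPKM, and for skeletal muscle markers 4.85 FPKM. The mitochondrial rRNA mt-Rnr1 stood at 379 to 396 FPKM in the KO day 0 libraries and at 264 FPKM in WT day 0 replicate 3, against 5.87 to 19.9 FPKM in the other libraries. Hsp90aa1, a heat shock chaperone, was at 174 to 178 FPKM in the KO day 0 libraries, 886 FPKM in WT day 0 replicate 3 and 4.70 to 28.5 FPKM elsewhere. The part of this difference in the results was not tested. Without WT day 0 replicate 3 the same criteria gave 149 genes, of which 144 were among the 147. Leaving that library out does not touch the KO day difference, since all KO day 0 libraries were high in both genes.

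The 147 members are a minority of those that fell in WT cells. In all, 610 genes had a WT difference of -2 or less, and the members are 24.1% of them. Of the other genes in that set, 326 fell by 0.5 to 2 in KO cells too, 99 fell there by 2 or more, and 38 rose there by over 0.5. The opposite pattern, a fall of 2 or more in KO cells with a WT difference within 0.5 of 0, was met by 23 of the 207 genes that fell that far in KO cells. A level KO value is common in itself: 67.4% of the 12961 genes tested (those averaging 1 FPKM or more) had a KO difference within 0.5 of 0.

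**Figure D1:**
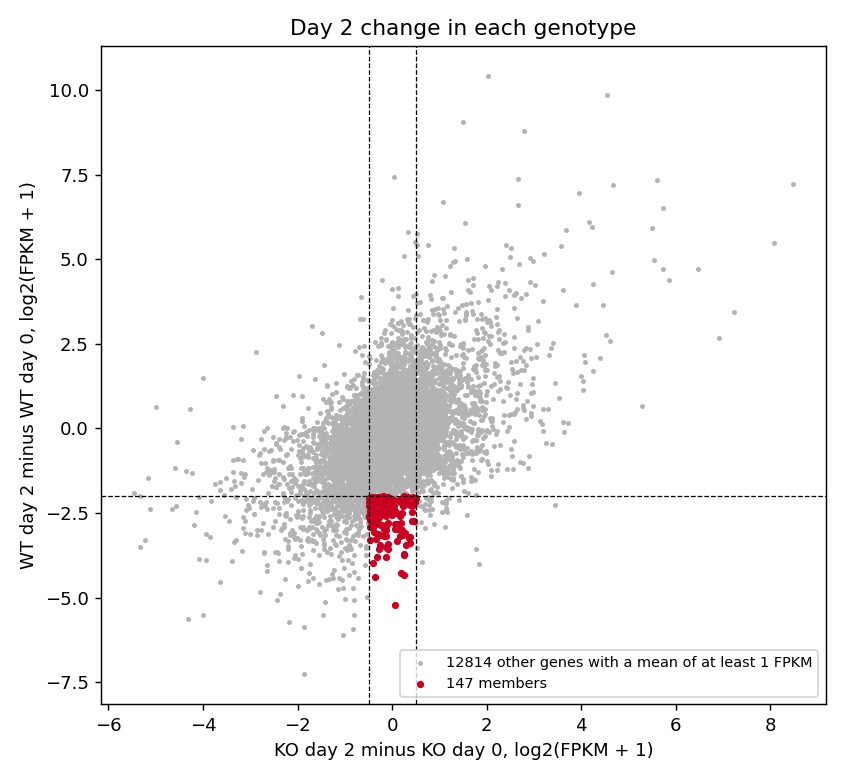
Each point is a tested gene, averaging 1 FPKM or more, placed by its day 2 minus day 0 difference of log2(FPKM + 1) in KO cells (horizontal) and in WT cells (vertical); dashed lines are the bounds that chose the 147 members (red). The members lie within 0.5 of 0 in KO cells and below -2 in WT cells, and Myl9 is the lowest red point at -5.20.

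Among the members the KO differences ran from -0.49 to 0.50 with a median of -0.13, while the WT differences had a median of -2.47 and reached -5.20 for Myl9. Over all 12961 genes the medians were -0.03 in KO cells and -0.11 in WT cells. In KO cells 96 members stood slightly lower on day 2 and 51 slightly higher. In plain FPKM the median member was 7.38-fold lower in WT cells on day 2 than on day 0. Its starting level varied widely, with WT day 0 means of 3.50 to 2360 FPKM and a median of 31.8 FPKM. The bounds cut through a continuum. Just inside the WT bound were Lpcat4 at -2.001, Epb41l3 at -2.005 and Ids at -2.01, and just outside it Samd14 at -1.997, Pcdh7 at -1.996 and Rnase4 at -1.994. At the lower KO bound Hk1, Map1a and Medag were inside at -0.49, and Dnase2a, Dlk2 and Gcat were outside at -0.51. At the upper KO bound Chaf1b at 0.499, Dnm3os at 0.49 and Ank3 at 0.48 were inside, and Socs3 at 0.51 and Myof at 0.52 were outside. All 147 members averaged 1 FPKM or more, 136 are protein coding in RefSeq, 4 are long non-coding RNAs, 4 are pseudogenes and 3 have no RefSeq entry. In 11 members some library was at 0.

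A level KO value hides several different states. For each member the mean KO level over both days was placed on the line between the WT day 2 level, set at 0%, and the WT day 0 level, set at 100%. The median position was 55.8%, and it ranged from -57.999% for Chaf1b to 194% for Vegfd. In 104 members the KO level lay between the WT levels, in 20 it was at or below the WT day 2 level, and in 23 it was at or above the WT day 0 level. These sets rest on the KO average over both days. Taken day by day, 102 of the 104 lay between the WT levels on each day, 18 of the 20 were at or below the WT day 2 level on each day, and 20 of the 23 were at or above the WT day 0 level on each day. Low KO values also limit how far a gene could fall: 17 members averaged under 1 FPKM in KO cells on both days, and 10 began below 0.5 on the log2 scale, so that they could not have missed the lower KO bound. At the other end, 85 members averaged at least 10 FPKM in KO cells on both days. With each gene's values over the 12 libraries scaled to a mean of 0 and an SD of 1, the members averaged 0.066 to 0.086 in the KO day 0 and -0.012 to -0.0032 in the KO day 2 libraries, against 1.14 to 1.15 in the WT day 0 and -1.22 to -1.21 in the WT day 2 libraries.

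**Figure D2:**
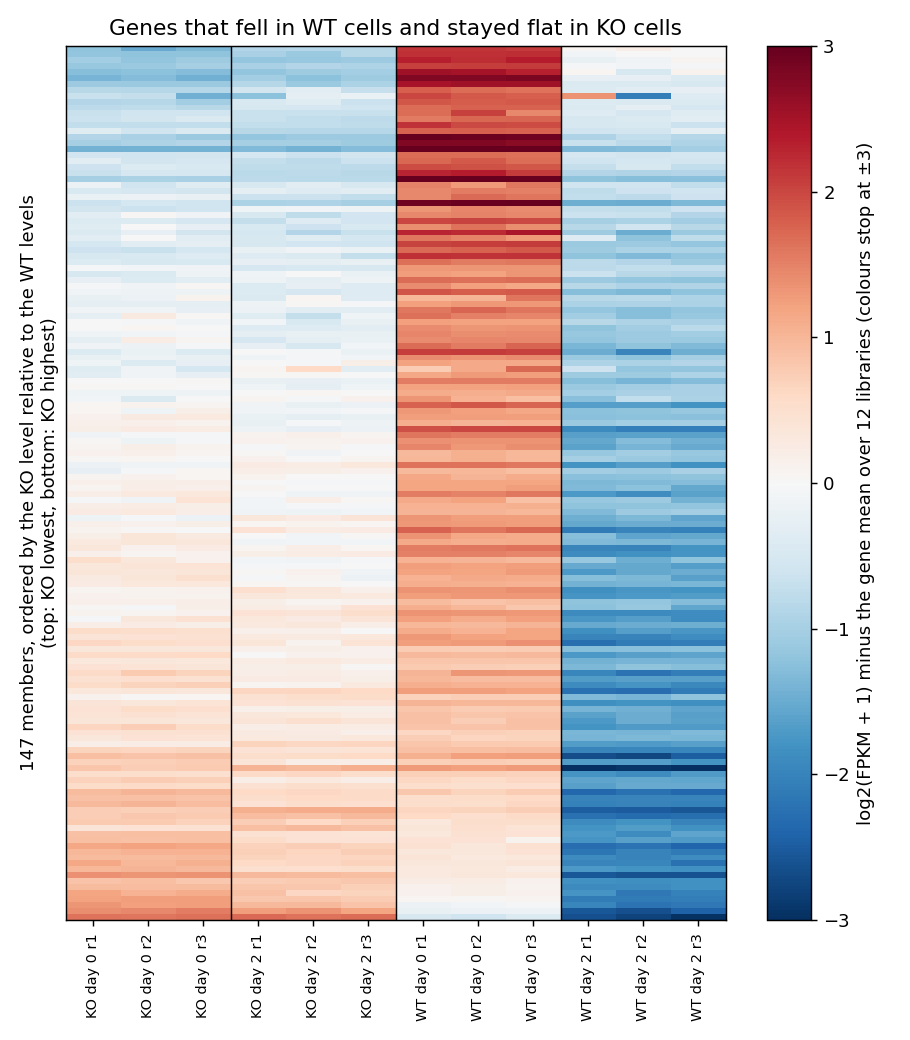
Rows are the 147 members ordered by where the KO level lies between the WT levels, columns are the 12 libraries, and colour is log2(FPKM + 1) minus the gene's mean, with colours ending at 3 and -3. The KO columns shift from blue at the top, where KO cells lay below both WT levels, to red at the bottom, where they lay above both, while the WT columns are red on day 0 and blue on day 2 for most rows.

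The mean of both KO groups minus the mean of both WT groups asks whether the KO level lay off the middle of the WT levels. Its error is uncorrelated in this balanced design with that of either day difference, but its size is not free of the criteria in members that were low everywhere except in WT cells on day 0, where it restates the WT fall. By limma across 12961 genes, 79 members were higher in KO cells averaged over both days, 58 were lower and 10 did not pass the adjusted p of 0.05. Without the WT day 0 libraries 22 members averaged under 1 FPKM, so that they were tested only through the group in which they were high. Of these 22, 21 are among the 58 and none among the 79, their differences are given as descriptions, and the other 125 members hold 79 higher and 37 lower. Among the 37, Hmga2, E2f7, Chaf1b and Lrp8 were also far higher in WT cells on day 0 than in any other group. Their differences are therefore given as descriptions too. Asking for a mean of at least 5 FPKM over all libraries left 116 members, of which 77 were higher and 33 lower. Over all genes tested 41.5% were higher and 44.7% lower, so that 86.2% differed. The shares over all 147 members, the 22 included, were 53.7% and 39.5%, or 93.2% in all. The lower share is thus partly set by the criteria and is no test against the share of all genes. The median difference of the 147 was 0.15, against -0.03 for all genes, and the range was from -2.77 for Myl9 to 3.29 for Vegfd. Day by day, and as a description since WT libraries chose the members, all KO libraries lay below all WT libraries on day 0 in 122 members (45.0% of all genes tested) and above them in 22 (39.1%). On day 2 they lay above them in 122 members (41.2%) and below them in 15 (41.0%). The order was crossed, with KO lower on day 0 and higher on day 2, in 97 members (10.1%). In 15 members KO was lower on both days (28.3%), in 22 it was higher on both (26.2%), and in 13 some libraries overlapped. The median KO minus WT difference was -1.19 on day 0 and 1.38 on day 2. The difference between the day differences, the interaction term, passed in all 147 members (73.8% of all genes tested), which the bounds ensure.

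**Figure D3:**
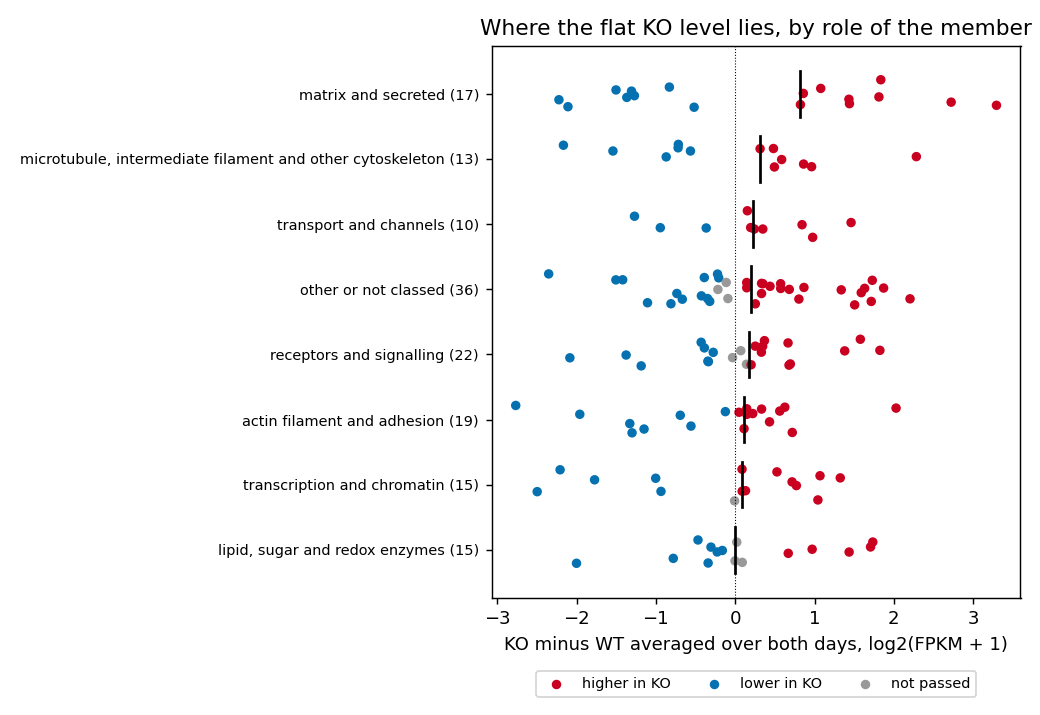
Each point is a member, placed by KO minus WT averaged over both days on the log2(FPKM + 1) scale (0: the KO level lies midway between the WT levels), in rows by role with the number of members; vertical bars are row medians, and colours give the limma call. Every row holds members on both sides of 0, and the matrix and secreted row reaches from -2.22 (Tgfbi) to 3.29 (Vegfd).

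Genes of the actin filament and its adhesions made up 19 members. Of these, 11 were higher and 8 lower in KO cells averaged over both days (41.5% and 44.7% of all genes tested). Among the 8, Myl9, Actg2 and Aif1l were tested only through the WT day 0 libraries, so their calls are descriptions. The classes were written by hand with the values known, so their counts describe the members and nothing more. Myl9, a regulatory light chain of myosin II, had 0, 0 and 0 FPKM in KO cells on day 0 and 0.07198, 0 and 0.0779 FPKM on day 2, against 43.8, 39.9 and 40.2 FPKM in WT cells on day 0 and 0.0698, 0.0789 and 0.314 FPKM on day 2. It is abundant in the WT day 0 libraries alone, and the 3 KO day 0 libraries held no read of it. Actg2, smooth muscle gamma-actin, had 0.0606, 0.102 and 0.155 FPKM in KO cells on day 0 and 0.0489, 0.0575 and 0 FPKM on day 2, against 13.5, 13.4 and 12.8 FPKM in WT cells on day 0 and 0.332, 0.214 and 0.107 FPKM on day 2. Both genes were near 0 in KO cells on either day and in WT cells on day 2. Averaged over both days KO minus WT was -2.77 for Myl9 and -1.96 for Actg2, given as descriptions since they follow from the WT falls. Tagln2, an actin-binding transgelin, had 89.1, 87.4 and 89.6 FPKM in KO cells on day 0 and 91.6, 84.4 and 89.7 FPKM on day 2, against 429, 422 and 421 FPKM in WT cells on day 0 and 92.7, 90.8 and 92.1 FPKM on day 2. Its KO libraries stood just below the WT day 2 libraries on day 0 and overlapped them on day 2, so the KO cells held, before the cocktail, about the level that WT cells had after it.

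The highly expressed scaffold genes lay in between. Flna, which cross-links actin filaments, had 372, 373 and 366 FPKM in KO cells on day 0 and 411, 423 and 411 FPKM on day 2, against 881, 875 and 897 FPKM in WT cells on day 0 and 203, 208 and 207 FPKM on day 2. Zyx, a LIM protein of focal adhesions, had 154, 159.7 and 159 FPKM in KO cells on day 0 and 177, 182 and 175 FPKM on day 2, against 499, 480.0 and 482 FPKM in WT cells on day 0 and 52.7, 53.7 and 53.3 FPKM on day 2. In both genes all KO libraries were below the WT day 0 and above the WT day 2 libraries. Zyx sat slightly above the middle of the WT levels, 0.05 ± 0.02 (SE, adjusted p = 0.0165), and Flna slightly under the middle, -0.12 ± 0.01 (SE, adjusted p = 4.64e-06), a sign that turned under quantile normalization (0.15). Cald1, caldesmon, which binds actin and tropomyosin, had 307, 303 and 304 FPKM in KO cells on day 0 and 361, 353 and 349 FPKM on day 2, against 679.5, 694 and 698 FPKM in WT cells on day 0 and 82.7, 85.3 and 87.7 FPKM on day 2. The tropomyosin Tpm4 averaged 217 ± 5.05 and 205 ± 3.07 FPKM in KO cells on days 0 and 2, against 475 ± 4.41 and 68.3 ± 1.49 FPKM in WT cells (SD, n = 3 each). Myh9, the heavy chain of non-muscle myosin IIA, averaged 488 and 406 FPKM in KO cells on days 0 and 2, against 880.4 and 183 FPKM in WT cells. Msn, moesin, which ties actin to the membrane, averaged 194 and 168 FPKM in KO cells on days 0 and 2, against 390.1 and 67.8 FPKM in WT cells. Tmsb4x, thymosin beta 4, which holds actin monomers, averaged 324 and 415 FPKM in KO cells on days 0 and 2, against 761 and 80.5 FPKM in WT cells, and its reads may be shared with copies elsewhere in the genome. Cald1, Tpm4, Myh9, Msn and Tmsb4x were higher in KO cells averaged over both days, by 0.43, 0.22, 0.15, 0.15 and 0.56 on the log2 scale. Tns3, a tensin that links integrins to actin, was the exception on the high side at 192 ± 4.07 and 141 ± 3.19 FPKM in KO cells on days 0 and 2, against 84.4 ± 1.303 and 18.3 ± 0.293 FPKM in WT cells, a difference of 2.03 ± 0.02 (SE, adjusted p = 4.78e-16). Of the remaining 8 members of the class, named for completeness, Diaph3 and Aif1l lay below the WT day 2 level at -11.9% and -11.1%, and Fhl3, Iqgap1, Micall2, Csrp1, Mical1 and Tgfb1i1 lay between the WT levels at 22.4% to 72.7%.

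**Figure D4:**
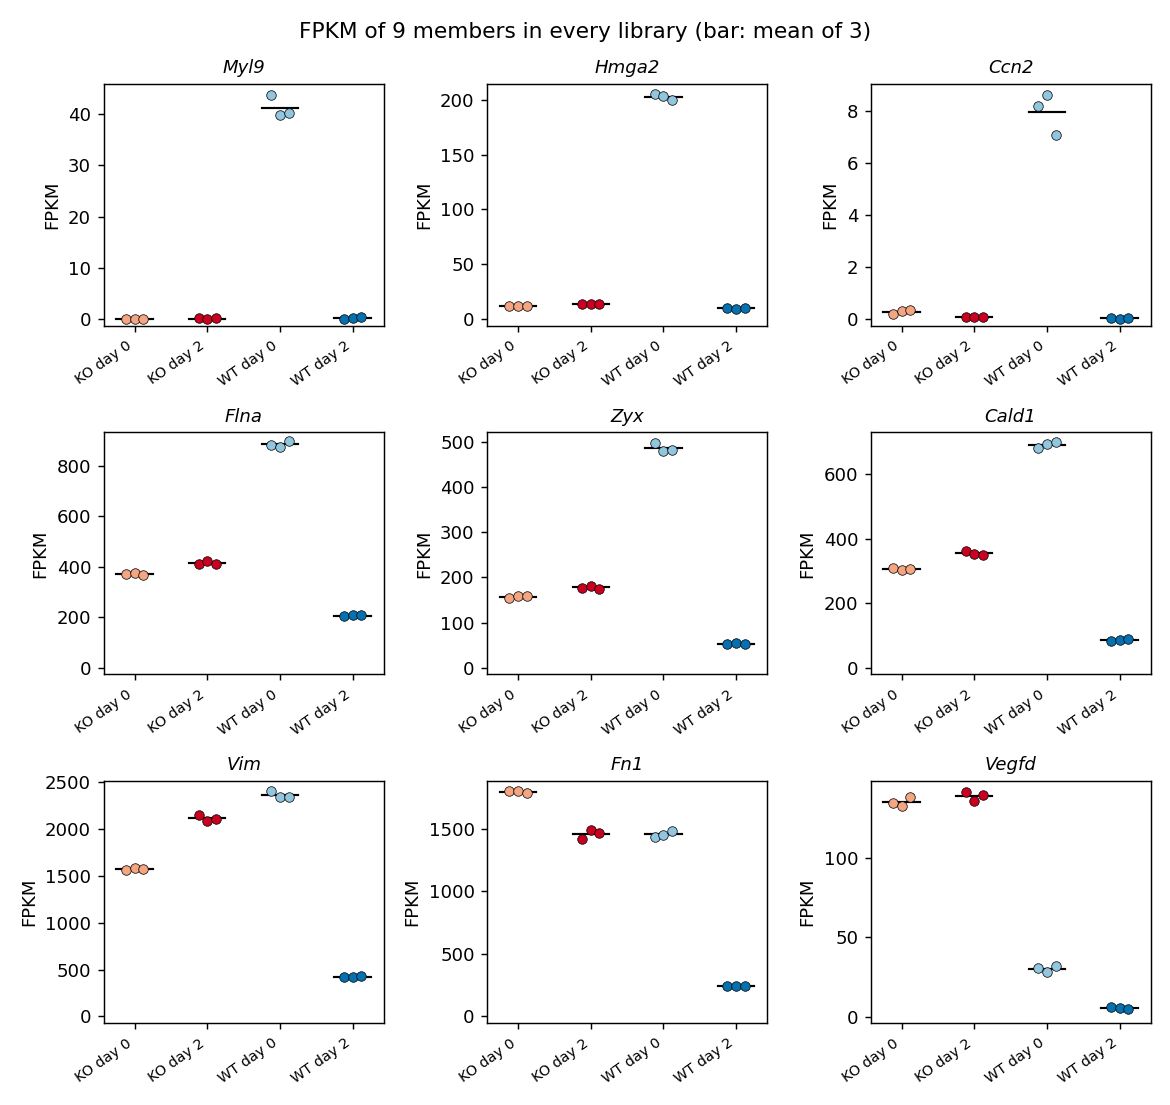
Points are the FPKM values of 9 members in each of the 12 libraries on a linear axis, bars are means of 3. Myl9, Hmga2 and Ccn2 (top) are near the WT day 2 level in KO cells on both days, Flna, Zyx and Cald1 lie between the WT levels, and Vim, Fn1 and Vegfd (bottom) lie nearer to or above the WT day 0 level.

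The start-site regions of 4 genes of the actin filament and adhesion class are shown as examples, picked because each holds a CArG box, TEAD or AP-1 motif. Over the 19 promoters found for the class, a CArG box was in 1 (5.26%), the TEAD motif in 3 (15.8%) and AP-1 in 2 (10.5%). Over the promoters of genes tested the shares were 1.30%, 11.9% and 4.95%. The sequences are RefSeq's, build GRCm38.p6, read 5′ to 3′ from 250 bases before to 50 bases after the annotated start. Capitals in Myl9 (chr2:156775214-156775513, plus strand) mark the CArG box, the SRF motif, at 161 to 152 bases before the start. Capitals in Tagln2 (chr1:172499996-172500295, plus strand) mark a pair of TEAD motifs (GGAATG, here on the other strand), 118 to 113 and 80 to 75 bases before the start. Capitals in Flna (chrX:74246485-74246784, minus strand) mark a TEAD motif 146 to 141 bases before it. Capitals in Zyx (chr6:42349578-42349877, plus strand) mark an AP-1 motif (TGANTCA), 121 to 115 bases before it.
Myl9: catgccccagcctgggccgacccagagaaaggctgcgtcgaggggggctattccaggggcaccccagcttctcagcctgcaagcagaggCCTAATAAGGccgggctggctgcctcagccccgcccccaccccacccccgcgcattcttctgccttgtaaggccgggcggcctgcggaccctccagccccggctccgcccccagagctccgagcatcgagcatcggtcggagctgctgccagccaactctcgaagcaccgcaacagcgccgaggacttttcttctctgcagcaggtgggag
Tagln2: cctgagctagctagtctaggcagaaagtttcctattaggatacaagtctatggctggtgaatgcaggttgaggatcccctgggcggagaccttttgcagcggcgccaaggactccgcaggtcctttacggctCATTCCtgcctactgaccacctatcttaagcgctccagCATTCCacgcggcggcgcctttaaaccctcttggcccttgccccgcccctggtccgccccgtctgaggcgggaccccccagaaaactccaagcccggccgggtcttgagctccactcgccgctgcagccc
Flna: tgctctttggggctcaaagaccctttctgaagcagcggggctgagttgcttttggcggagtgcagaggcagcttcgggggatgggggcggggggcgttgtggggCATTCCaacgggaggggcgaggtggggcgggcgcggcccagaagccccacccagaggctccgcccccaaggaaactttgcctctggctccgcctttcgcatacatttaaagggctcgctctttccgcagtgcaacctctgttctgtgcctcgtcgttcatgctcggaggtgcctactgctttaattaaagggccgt
Zyx: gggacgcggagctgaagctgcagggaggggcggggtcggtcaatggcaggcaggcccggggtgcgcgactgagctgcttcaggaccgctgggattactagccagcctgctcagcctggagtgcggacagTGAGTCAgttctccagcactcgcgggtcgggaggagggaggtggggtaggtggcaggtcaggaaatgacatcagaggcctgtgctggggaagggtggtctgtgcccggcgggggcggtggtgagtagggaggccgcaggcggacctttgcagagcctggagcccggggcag

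The same motifs were counted over all members. Promoters on chromosome 18, which holds Lmnb1 and Dynap, were left out of all these counts. RefSeq promoters elsewhere were found for 117 members, 158 in all because 25 members have more than 1. On either strand, a CArG box was in 2 of the 158, or 1.27% (Myl9 and Dnm3os), against 1.30% of the 11583 promoters of genes tested and 1.63% of all 32851 promoters. The TEAD motif was in 25, or 15.8%, against 11.9% and 14.7%. The AP-1 motif was in 9, or 5.70%, against 4.95% and 7.81%. TATAAA was in 17, or 10.8%, against 6.82% and 13.6%, and the GC box GGGCGG in 92, or 58.2%, against 63.4% and 35.7%. Of the cell cycle motifs, that of E2F (TTCCCGCC) was in 3, or 1.90%, against 4.05% and 2.19%, and CHR (TTTGAA) in 22, or 13.9%, against 11.9% and 17.9%. CCAAT was in 55, or 34.8%, against 38.4% and 37.4%. The cyclic AMP element TGACGTCA was in 3, or 1.90%, against 3.11% and 1.79%, and the sterol element TCACNCCAC in 2, or 1.27%, against 1.08% and 1.24%. These are letters in short windows, not sites, and more distant sequence was not searched.

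A list of 19 contractile and actin genes, which leaves out the actins Actb and Actg1, sets the members beside related genes. Of its 14 tested genes, 6 are members (Myl9, Actg2, Tagln2, Flna, Cald1 and Tpm4), or 42.9%, against 1.13% of all genes tested. This list and those below were chosen with earlier results of these data known, so such shares are descriptions. Of the 6, Myl9 and Actg2 were tested only through the WT day 0 libraries, so this share is also partly set by the criteria. Of the other 8 tested genes, 8 fell in KO cells (38.8% of all genes tested fell and 33.9% rose) and 7 fell in WT cells while 1 rose (46.5% fell and 34.2% rose). Their median differences were -0.90 in KO and -2.47 in WT cells. The day difference was higher in KO than in WT cells in 7 of the 8 and lower in 1, by the interaction term (40.8% and 33.0% of all genes tested), and these counts were the same under each scaling tried. Acta2, smooth muscle alpha-actin, averaged 73.997 ± 1.21 and 19.6 ± 1.09 FPKM in KO cells on days 0 and 2, against 541 ± 8.301 and 2.54 ± 0.277 FPKM in WT cells (SD, n = 3 each). It fell by 1.87 in KO and by 7.26 in WT cells on the log2 scale (adjusted p = 1.95e-11 and 1e-16, limma). Cnn2, a calponin, averaged 162 and 46.5 FPKM in KO cells on days 0 and 2, against 272 and 10.9 FPKM in WT cells, and Tpm1, a tropomyosin, averaged 317 and 68.6 FPKM in KO cells on days 0 and 2, against 454 and 40.3 FPKM in WT cells. Actn1, Pdlim7, Smtn and Tpm2 also fell in both genotypes. Mylk, the kinase of myosin light chains, was the exception: it averaged 18.2 and 9.54 FPKM in KO cells on days 0 and 2, against 4.48 and 8.64 FPKM in WT cells, having fallen in KO and risen in WT cells. Actb and Actg1, off the list, rose in KO cells, by 0.45 and 0.67 on the log2 scale, and fell by 1.73 and 1.30 in WT cells. Actb averaged 1154 and 1577 FPKM in KO cells on days 0 and 2, and Actg1 1054 and 1687 FPKM. The fall in KO cells thus describes the genes listed, not all actin genes.

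A list of 15 targets of YAP and TEAD, all of them tested, holds 2 members, or 13.3%, against 1.13% of all genes tested. Of the 2, Ccn2 was tested only through the WT day 0 libraries, so this share is partly set by the criteria. Ccn2, a secreted matrix-associated growth factor, had 0.1903, 0.32 and 0.325 FPKM in KO cells on day 0 and 0.0768, 0.0903 and 0.0554 FPKM on day 2, against 8.21, 8.63 and 7.095 FPKM in WT cells on day 0 and 0.0248, 0 and 0.0279 FPKM on day 2. It was close to 0 everywhere except in the WT day 0 libraries. Nuak2, a kinase related to AMPK that acts on myosin, had 5.15, 4.799 and 4.697 FPKM in KO cells on day 0 and 6.71, 5.67 and 5.78 FPKM on day 2, against 18.6, 16.2 and 17.7 FPKM in WT cells on day 0 and 0.324, 0.445 and 0.3902 FPKM on day 2. Unlike Ccn2, it kept an intermediate level in KO cells. Among the other 13 targets, 9 fell and 3 rose in KO cells (38.8% and 33.9% of all genes tested), with a median of -0.52. In WT cells 8 fell and 4 rose (46.5% and 34.2%), with a median of -1.06. The day difference was higher in KO cells in 6 and lower in 5 (40.8% and 33.0% of all genes tested). Ccn1, a sister gene of Ccn2, averaged 23.98 ± 1.04 and 85.01 ± 3.37 FPKM in KO cells on days 0 and 2, against 158 ± 1.51 and 12.5 ± 0.887 FPKM in WT cells and thus rose by 1.78 in KO cells while it fell by 3.56 in WT cells (adjusted p = 1.09e-11 and 9.81e-15, limma). Axl, a receptor tyrosine kinase, rose by 0.61 in KO cells and fell by 2.75 in WT cells, past the upper KO bound. Gadd45b, Ajuba and Ankrd1 fell in both genotypes.

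**Figure D5:**
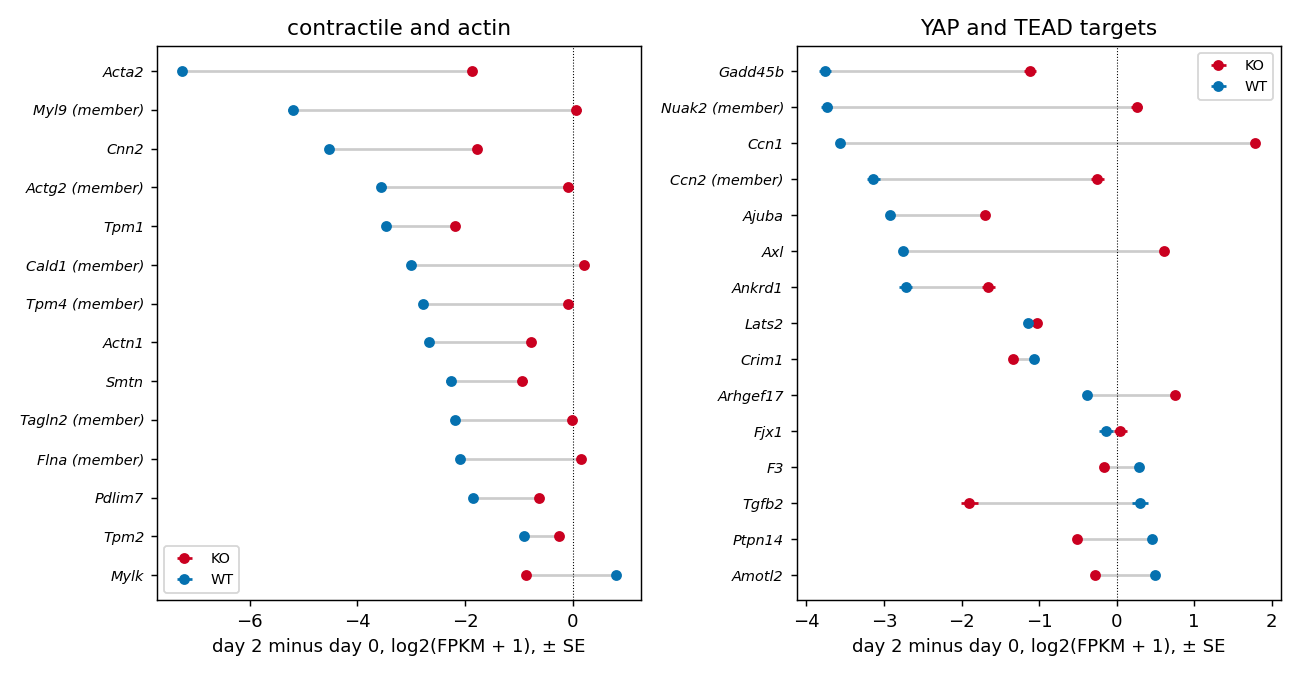
For each tested gene of the contractile list (left) and of the YAP and TEAD list (right), the day 2 minus day 0 difference on the log2(FPKM + 1) scale is drawn for KO (red) and WT cells (blue), with the standard error, often smaller than the point. Members have a KO point near 0 by choice, while most contractile genes outside the 147, such as Acta2 and Tpm1, have both points below 0.

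Of the 17 matrix and secreted members, 9 were higher and 8 lower in KO cells averaged over both days (41.5% and 44.7% of all genes tested). Among the 8, Tgfbi, Sfrp2, Hs6st2, Lrrc17 and Ccn2 were tested only through the WT day 0 libraries, so their calls are descriptions. The 17 had the highest median position of the classes, 79.1%. Fn1, fibronectin, the most abundant of them, had 1801, 1799 and 1784 FPKM in KO cells on day 0 and 1421, 1493 and 1466 FPKM on day 2, against 1431, 1451 and 1483 FPKM in WT cells on day 0 and 243, 247 and 247 FPKM on day 2. The KO day 2 libraries overlapped the WT day 0 libraries, and the difference averaged over both days was 1.43 ± 0.02 (SE, adjusted p = 2.58e-15). Vegfd, a growth factor for lymphatic vessels, had 134, 132 and 138 FPKM in KO cells on day 0 and 141, 136 and 139 FPKM on day 2, against 30.5, 27.9 and 31.99 FPKM in WT cells on day 0 and 6.09, 5.44 and 4.62 FPKM on day 2. Its KO level was above every WT library on both days, by 3.29 ± 0.05 (SE, adjusted p = 3.46e-14). Prss23, a secreted serine protease, had 65.4, 61.2 and 63.8 FPKM in KO cells on day 0 and 75.2, 72.4 and 79.2 FPKM on day 2, against 89.5, 87.2 and 89.9 FPKM in WT cells on day 0 and 3.67, 3.96 and 2.8 FPKM on day 2, one of the steepest WT falls. Csgalnact1, which starts chondroitin sulphate chains, averaged 45.2 and 39.4 FPKM in KO cells on days 0 and 2, against 13.8 and 1.896 FPKM in WT cells. The growth factors Fgf2 and Hgf averaged 20.02 and 15.04 FPKM in KO cells on days 0 and 2, against 9.7 and 1.48 FPKM in WT cells for Fgf2, and 17.2 and 16.4 FPKM in KO cells on days 0 and 2, against 13.8 and 1.9 FPKM in WT cells for Hgf. Both were higher in KO cells averaged over both days, by 1.84 and 1.44. Ltbp1, which stores latent TGF-beta in the matrix, averaged 36.4 and 38.2 FPKM in KO cells on days 0 and 2, against 56.7 and 7.12 FPKM in WT cells.

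On the low side of the same class were genes that KO cells hardly expressed. Sfrp2, a secreted Wnt modulator, had 0.222, 0.1402 and 0.0475 FPKM in KO cells on day 0 and 0, 0.0528 and 0.0485 FPKM on day 2, against 17.2, 16.2 and 15.9 FPKM in WT cells on day 0 and 0.174, 0.344 and 0.244 FPKM on day 2. Tgfbi, a matrix protein induced by TGF-beta, averaged 0.0824 ± 0.05703 and 0.0482 ± 0.0209 FPKM in KO cells on days 0 and 2, against 10.3 ± 0.5701 and 1.18 ± 0.218 FPKM in WT cells (SD, n = 3 each), so that it was lower in KO cells even than in WT cells on day 2. The differences averaged over both days were -2.11 for Sfrp2 and -2.22 for Tgfbi, given as descriptions because both passed 1 FPKM only through the WT day 0 libraries. The heparan sulphate enzyme Hs6st2, Hhipl1 and Lrrc17 were likewise below 2 FPKM in every KO library, at positions of -8.63%, -8.04% and 0.224%. Tll1, Ptx3, Adamtsl5 and Adam8 lay between the WT levels at 11.7%, 31.6%, 83.1% and 93.2%. On a list of 18 tested matrix glycoproteins, Fn1 is the only member. Of the other 17, 13 fell and 3 rose in KO cells (38.8% and 33.9% of all genes tested), with a median of -1.30, and 15 fell and 2 rose in WT cells (46.5% and 34.2%), with a median of -2.02. The day difference was higher in KO than in WT cells in 11 and lower in 5 (40.8% and 33.0%).

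The cytoskeleton beyond actin gave 13 members, which belong to microtubules, intermediate filaments, the membrane skeleton or the nuclear lamina. Vim, vimentin, the intermediate filament of mesenchymal cells, had 1556, 1584 and 1571 FPKM in KO cells on day 0 and 2150.2, 2088 and 2108 FPKM on day 2, against 2407, 2334 and 2338 FPKM in WT cells on day 0 and 423, 417 and 435 FPKM on day 2. It was the most abundant member in WT cells on day 0. Its KO libraries were somewhat higher on day 2 than on day 0 and below the WT day 0 libraries on both days. Dclk1, a microtubule-binding kinase, averaged 101 ± 2.14 and 75.9 ± 2.08 FPKM in KO cells on days 0 and 2, against 48.8 ± 0.919 and 5.68 ± 0.238 FPKM in WT cells (SD, n = 3 each) and was higher in KO cells averaged over both days by 2.28 ± 0.02 (SE, adjusted p = 1.1e-15). Nav2, a neuron navigator protein, fell by 4.40 in WT cells and averaged 1.49 and 0.936 FPKM in KO cells on days 0 and 2, against 28.4 and 0.394 FPKM in WT cells. Lmnb1, lamin B1, whose message is high in dividing cells, averaged 6.79 and 8.11 FPKM in KO cells on days 0 and 2, against 81.04 and 16.3 FPKM in WT cells, at a position of -46.6%. Tubb3, a beta-tubulin of neurons, averaged 0.5502 and 0.252 FPKM in KO cells on days 0 and 2, against 3.95 and 0.0617 FPKM in WT cells. Its KO minus WT difference averaged over both days, -0.72, is a description, since it passed 1 FPKM only through the WT day 0 libraries. The voom fit on recovered reads gave -0.03. Krt80, Ank3, Dpysl2, Map6, Plec, Epb41l3, Sept5 and Map1a took positions of 12.2% to 94.6%.

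The 15 members that act on transcription and chromatin took positions from -57.999% to 112%, for Chaf1b and Snai2. Hmga2, an architectural chromatin protein of growing mesenchymal cells, had 11.7, 12.01 and 11.8 FPKM in KO cells on day 0 and 13.7, 13.5 and 13.4 FPKM on day 2, against 205, 204 and 200.0 FPKM in WT cells on day 0 and 9.91, 9.46 and 9.67 FPKM on day 2. The KO libraries were just above the WT day 2 libraries on both days. The difference averaged over both days, -1.77, is a description, since Hmga2 was high in WT cells on day 0 alone. E2f7, a repressor of the cell cycle programme, averaged 0.818 ± 0.0803 and 1.19 ± 0.144 FPKM in KO cells on days 0 and 2, against 31.8 ± 0.578 and 2.85 ± 0.244 FPKM in WT cells (SD, n = 3 each), and Chaf1b, a subunit of the replication-coupled chromatin assembly factor, averaged 3.65 ± 0.485 and 5.55 ± 0.141 FPKM in KO cells on days 0 and 2, against 50.7 ± 0.847 and 11.6 ± 0.942 FPKM in WT cells (SD, n = 3 each). Both were below the WT day 2 level in KO cells on both days. KO minus WT averaged over both days was -2.50 for E2f7 and -2.21 for Chaf1b. These are descriptions, since both genes were by far highest in WT cells on day 0. A list of 24 mitosis genes holds no member. All 24 were lower in KO cells averaged over both days (44.7% of all genes tested), with a median of -2.95. The part of this in the low KO values of Chaf1b, E2f7 and Lmnb1 was not tested. Klf4, a factor that acts early in fat cell formation, averaged 29.95 ± 0.712 and 26.9 ± 1.31 FPKM in KO cells on days 0 and 2, against 56.5 ± 1.68 and 12.3 ± 0.502 FPKM in WT cells, close to midway. Prrx1, a homeobox factor of mesenchyme, averaged 113 ± 0.723 and 94.9 ± 1.23 FPKM in KO cells on days 0 and 2, against 133 ± 2.37 and 17.5 ± 0.303 FPKM in WT cells, and Snai2, a repressor of epithelial genes, averaged 26.5 ± 0.402 and 19.05 ± 0.352 FPKM in KO cells on days 0 and 2, against 18.7 ± 1.03 and 3.48 ± 0.447 FPKM in WT cells. Prrx1 and Snai2 were higher in KO cells averaged over both days, by 1.07 and 1.32. The Hedgehog effector Gli1 and Bnc1 lay low, at 16.5% and 20.6%, while the TEAD family member Tead2 was at 101%, with 125 and 119 FPKM in KO cells on days 0 and 2, against 120.5 and 28.4 FPKM in WT cells. Nab2, Sertad1, Erf, Hdac7, Ier5 and Zfpm1 lay at 49.7% to 81.6%.

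Receptors and signalling proteins made up 22 members. In KO cells averaged over both days 11 were higher and 8 lower (41.5% and 44.7% of all genes tested). Flt1, among the 8, was tested only through the WT day 0 libraries, so its call is a description. Lrp8, a receptor for reelin and apolipoprotein E, averaged 0.9295 ± 0.0211 and 1.12 ± 0.198 FPKM in KO cells on days 0 and 2, against 23.000 ± 0.662 and 2.05 ± 0.0496 FPKM in WT cells (SD, n = 3 each). Its KO minus WT difference averaged over both days, -2.08, is a description, since it was high in WT cells on day 0 alone. Ncam1, a neural cell adhesion molecule, had 29.5, 29.04 and 29.5 FPKM in KO cells on day 0 and 37.7, 39.05 and 38.8 FPKM on day 2, against 28.01, 28.3 and 29.6 FPKM in WT cells on day 0 and 2.33, 2.24 and 2.12 FPKM on day 2. Its KO and WT libraries overlapped on day 0 and were far apart on day 2. The KO average of Ncam1 was higher by 1.82 ± 0.02 (SE, adjusted p = 1.07e-14). The sphingosine phosphate receptor S1pr2 and Socs1, an inhibitor of cytokine signalling, also lay above the WT day 0 level, at 102% and 118%. Flt1, a VEGF receptor, and Ripk3, a kinase of necroptosis, lay below the WT day 2 level at -17.8% and -1.299%. The other 15 members apart from Nuak2 lay in between. They are Rhebl1, Arhgap31, Styk1, Rab32, Rin1, Il18rap, Dok1, Rasl11a, Tpbg, Tnfrsf23, Arhgdib, Camkk1, Rap2a, Prkca and Fyn, at positions of 31.95% to 83.2%. Tnfrsf23 has a close neighbouring copy, so its reads may be shared.

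Enzymes of lipid, sugar and redox chemistry made up 15 members. The prostaglandin synthases Ptgs1 and Ptgs2, which are targets of indometacin, were both among them. Ptgs2 had 28.7, 28.1 and 28.4 FPKM in KO cells on day 0 and 22.03, 22.5 and 23.03 FPKM on day 2, against 32.7, 36.3 and 37.3 FPKM in WT cells on day 0 and 1.53, 1.402 and 1.88 FPKM on day 2. It all but disappeared in WT cells on day 2, and KO cells kept most of the WT day 0 level. Ptgs1 averaged 163 ± 3.62 and 199 ± 4.35 FPKM in KO cells on days 0 and 2, against 303 ± 6.31 and 27.1 ± 2.03 FPKM in WT cells (SD, n = 3 each). Both were higher in KO cells averaged over both days, by 1.44 ± 0.05 (SE, adjusted p = 2.14e-11) for Ptgs2 and 0.97 ± 0.03 (SE, adjusted p = 1.91e-11) for Ptgs1. Gstm2, a glutathione transferase, averaged 149 and 109.7 FPKM in KO cells on days 0 and 2, against 90.01 and 16.2 FPKM in WT cells. Its reads may be shared with its close relative Gstm1. Nqo1, a quinone reductase, averaged 14.1 and 12.1 FPKM in KO cells on days 0 and 2, against 33.5 and 6.18 FPKM in WT cells. Pcyt1b, an enzyme of phosphatidylcholine synthesis, averaged 4.67 and 3.303 FPKM in KO cells on days 0 and 2, against 18.3 and 0.228 FPKM in WT cells, a position of 50.5%. Its KO difference of 0.02 ± 0.04 (SE, adjusted p = 0.651) did not pass here and passed as higher in KO with a pseudocount of 0.1, with TPM scaling and in the voom fit. Ids, a lysosomal sulphatase, lay at 136%, and Elovl6, St6gal1, Plpp2, Pdk3, Steap1, Acsl5, Lpcat4 and Hk1 at 21.6% to 75.6%.

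Carriers and channels for ions, phosphate, lipids or sugars made up 10 members. Clic1, an intracellular chloride channel protein, averaged 180.0 ± 4.698 and 134 ± 1.91 FPKM in KO cells on days 0 and 2, against 309.9 ± 6.14 and 55.1 ± 1.24 FPKM in WT cells (SD, n = 3 each). Kcnn4, a calcium-activated potassium channel, averaged 11.1 and 9.16 FPKM in KO cells on days 0 and 2, against 19.4 and 0.872 FPKM in WT cells. Abcb1b, a drug efflux pump, averaged 6.998 and 6.29 FPKM in KO cells on days 0 and 2, against 19.2 and 0.779 FPKM in WT cells, and some of its reads may be shared with its paralogue Abcb1a. All 3 were higher in KO cells averaged over both days, by 0.24, 0.84 and 0.35. The phosphate carrier Slc20a1 and Nipal1 lay low at 22.3% and -11.1%, and Mcub, Atp10a, Lrrc8c, Slc2a10 and Cacnb3 took positions of 37.6% to 107%.

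The remaining 36 members were not placed in these classes. Anxa1, annexin A1, a calcium-dependent phospholipid-binding protein, averaged 602 ± 10.7 and 509.8 ± 8.33 FPKM in KO cells on days 0 and 2, against 1746 ± 11.7 and 239 ± 9.08 FPKM in WT cells (SD, n = 3 each). Its KO minus WT difference averaged over both days was -0.22 ± 0.02 (SE, adjusted p = 3.42e-07), though quantile normalization gave 0.04. Dnm1, a dynamin of vesicle uptake, averaged 256 and 184 FPKM in KO cells on days 0 and 2, against 152 and 22.3 FPKM in WT cells, and Gulp1, an adaptor for engulfment, averaged 65.6 and 51.8 FPKM in KO cells on days 0 and 2, against 24.9 and 5.41 FPKM in WT cells. Both were higher in KO cells averaged over both days, by 1.87 and 2.204. Crip1, a small LIM protein, averaged 0.129 ± 0.0257 and 0.274 ± 0.0652 FPKM in KO cells on days 0 and 2, against 13.9 ± 1.14 and 1.55 ± 0.536 FPKM in WT cells (SD, n = 3 each), and its KO minus WT difference averaged over both days, also a description, was -2.35. Dynap averaged 2.86 and 3.601 FPKM in KO cells on days 0 and 2, against 19.5 and 0.578 FPKM in WT cells, and the long non-coding RNA Wincr1 averaged 1.11 and 0.733 FPKM in KO cells on days 0 and 2, against 13.05 and 0.205 FPKM in WT cells. The lower KO average of Dynap did not pass in the voom fit. For Wincr1, which passed 1 FPKM only through the WT day 0 libraries, the difference averaged over both days is a description. It was -1.11, and -0.72 in the voom fit.

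Besides Wincr1, 3 long non-coding RNAs are members. Dnm3os, which is transcribed opposite to Dnm3, averaged 24.4 ± 0.592 and 34.6 ± 1.21 FPKM in KO cells on days 0 and 2, against 24.3 ± 1.21 and 4.604 ± 0.299 FPKM in WT cells (SD, n = 3 each). Dnm3 itself averaged under 2 FPKM in all groups. Ptgs2os2, which lies near Ptgs2, averaged 1.63 and 1.07 FPKM in KO cells on days 0 and 2, against 6.05 and 0.189 FPKM in WT cells, and U90926 averaged 0.284 and 0.238 FPKM in KO cells on days 0 and 2, against 3.57 and 0.0639 FPKM in WT cells. No strand setting is given in the sources used here, so reads of these RNAs and of genes on the other strand cannot be told apart. The 4 pseudogenes, Gm12033, Gm3788, Gm22107 and Gm5424, can share reads with their parent genes. Gm22107 lies within the span of the member Myh9 on chromosome 15, so its reads may be those of Myh9. Gm12033 had 92.7, 89.7 and 53.2 FPKM in KO cells on day 0 and 61.6, 122 and 128 FPKM on day 2, against 588, 531 and 509 FPKM in WT cells on day 0 and 376, 33.9 and 113 FPKM on day 2, the widest spread between replicates of all members, and its place in the set rests on a WT day 2 mean that its libraries do not share. Of the rest, Tmem119, Tmem45a, Maged2, Medag and Dzip1 lay above the WT day 0 level at 111% to 131%, Trim59 lay below the WT day 2 level at -12.8%, and Fam110a, Gm38158, Gm9869, Mfap3l, Serp2, Cfap43, Tm4sf1, Zfp365, Mtmr11, S100a4, Serpinb6a, Ier5l, Lce1g, Ndrg1, Ahnak, Bex3 and Glmp lay in between at 16.3% to 83.2%.

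The pattern was not limited to genes that met the bounds. The 6 genes outside the 147 whose values followed the members' mean profile most closely over the 12 libraries did so with Pearson correlations of 0.994 to 0.997, given as a description since all 12 libraries share the same groups. Shoc2, a scaffold of the Ras pathway, averaged 17.8 and 17.5 FPKM in KO cells on days 0 and 2, against 22.7 and 13.2 FPKM in WT cells. Ppp1r18, Hsph1, Pcbp4, Arl6ip5 and Abcg2 came next. Their WT differences ran from -1.46 for Ppp1r18 to -0.70 for Arl6ip5 and their KO differences from -0.09 to 0.01, so they share the shape of the profile with smaller falls. Of the 144 members placed on a chromosome, 14 lie on chromosome 3 and 14 on chromosome 10, 9.72% each, against 5.04% and 4.63% of the genes tested. Chromosome X held 10 members, or 6.94%, against 3.54%, and chromosome 11 held 4, or 2.78%, against 8.13%.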

How the data were processed

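The 12 RNA-seq libraries of 3T3-L1 cells were analysed, 3 per group, and 24 MeRIP samples were not used here. The authors deposited FPKM values per gene. Per the submitters' processing notes the tools included TopHat2 2.0.12, Bowtie2 2.2.3 and HTSeq 0.6.1 with build mm10. Which annotation and strand setting were used is not given in the sources used here. FPKM is a share of each library, so a large rise of other genes lowers the rest. The values were whole multiples of a step per gene in all 30916 genes above 0 (tolerance 0.001 of a read), which gave whole reads for an alternative fit.

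Members came from group means of log2(FPKM + 1), pseudocount 1. Genes averaging 1 FPKM or more were fitted with limma 3.58.1 in R 4.3.3 (one mean per group, variance trend, 8 residual degrees of freedom), with Benjamini-Hochberg adjustment over 12961 genes. On simulated reads the fit was checked for known fold changes. The members and lists were chosen with earlier results of these data known, and the role classes with values seen. Genes with full values were named by rule: the 12 largest WT falls, the 8 highest and the 8 lowest in KO minus WT averaged over both days, the 12 highest WT day 0 means and up to 4 members per list, 49 in all, with the rest added to complete their class. Some items, 1 member among them, are counted but not reported by name here. Symbols matched RefSeq GRCm38.p6. Alternatives were a pseudocount of 0.1, TPM, median-of-ratios and quantile scaling, other filters, no variance trend, a replicate block, voom on recovered reads and each library left out in turn.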

Additional observations from a re-analysis of the deposited data

Results flagged for a closer look

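Among the listed contractile and actin genes outside the 147, the day difference was higher in KO than in WT cells in 7 of 8 by the interaction term of the limma fit. The exception was Mylk, at -1.68 on the log2 scale (adjusted p = 3.03e-10). Among YAP and TEAD targets outside the 147, the day difference was higher in KO cells in 6 of 13 and lower in 5. The interaction was largest for Ccn1, at 5.35 (adjusted p = 4.88e-14). For the members themselves the interaction passed in 147 of 147, but the criteria set that difference and it is no finding. Over all genes tested, the interaction passed in 73.8%, with the day difference higher in KO cells in 40.8% and lower in 33.0%.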

How the results depend on the processing

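The number of genes that met the criteria was 147 and was most sensitive to the pseudocount. With 0.1 in place of 1 it was 308, of which 124 were among the 147. It was 155 with TPM scaling, 140 with median-of-ratios scaling and 111 with quantile normalization, and 142 to 153 when each library was left out in turn. Of the 147 members, 118 met the criteria whichever library was left out, and 79 under every setting run.

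For KO minus WT averaged over both days, leaving out a library gave 78 to 79 members higher and 57 to 59 lower, and 5297 to 5346 higher and 5716 to 5765 lower over all genes. Asking for a mean of at least 5 FPKM left 116 members, of which 33 were lower and 77 higher. The voom fit gave 85 higher and 49 lower. Over all genes TPM scaling gave 5859 higher and 5260 lower, against 5373 and 5796 in the deposited scale. Quantile normalization turned the sign of Anxa1 to 0.039 (adjusted p = 0.13, not passed) and of Flna to 0.15 (adjusted p = 1.92e-05). Of the 49 named members, Tubb3 and Wincr1 (voom) and Dynap (voom, and pseudocount 0.1) no longer passed, Pcyt1b passed in 3 settings, and 1013 other values kept direction and call. Tubb3 and Wincr1 are among the 22 members tested only through the WT day 0 libraries, so their calls are descriptions in every setting. Replicate numbers did not pair libraries (correlations of -0.055 to 0.087 between same-numbered libraries, 6 of 12 closest to their own number). A fit with the replicate block gave 79 members higher and 58 lower, and 5357 and 5773 over all genes.

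Values under about 1 FPKM rest on few reads, and 17 members were that low in KO cells on both days. Day and library preparation cannot be told apart from the labels, nor can the KO genotype and the history of that line.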
